A study of Xenopus laevis with 12 samples.

Results

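The genes sox11.L and sox11.S are the copies of SOX11 that Xenopus laevis carries on its long (L) and short (S) chromosome sets, left by an ancestral genome duplication. They were chosen by symbol and are 2 of the 45099 gene models measured. SOX11 is a transcription factor with an HMG box, the DNA-bending domain of the SOX family, and belongs with SOX4 and SOX12 to the SoxC group. SoxC factors drive the differentiation of newly born neurons in vertebrate embryos, and in mouse they are needed for the formation of retinal ganglion cells, the neurons whose axons make up the optic nerve. In mouse, SOX11 rises in peripheral sensory neurons after nerve injury, and forced expression in adult ganglion cells promotes axon regrowth in some ganglion cell types and death in others.

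All frogs were transgenic F1 progeny, over 6 months old and past metamorphosis, carrying an EGFP-tagged rpl10a ribosomal protein under the islet2b promoter, which is active in retinal ganglion cells. RNA bound to tagged ribosomes was pulled from retinas with antibodies against EGFP (TRAP), and each TRAP library is a pool of 3 biological replicates. Of the 12 libraries, 1 held total retina RNA and 1 held TRAP RNA of unoperated (naive) frogs, each from both eyes together. Sham-operated frogs gave a left-eye and a right-eye library at day 1. Frogs with the right optic nerve crushed gave a library of the crushed eye and one of the uninjured left (contralateral) eye at each of days 1, 3, 7 and 11. The naive, sham and contralateral libraries together are called the 7 uncrushed TRAP libraries. Each condition and day was 1 library, so days served as the replicates. The labels place the crush on the right and were followed, although the design text in 1 place puts it on the left. Total estimated counts per library ran from 16820571 to 63299998. Going from total retina to naive TRAP, 2 of 21 ganglion cell marker models lay lower, and all 17 photoreceptor marker models did.

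In uncrushed eyes the level of both copies in ribosome-bound RNA was steady. In TPM, a unit scaled for gene length and depth, sox11.L stood at 71.1 in naive TRAP, 68.4 and 72.0 in the left and right sham eyes, and 65.8, 68.3, 69.8 and 71.0 in the contralateral eyes of days 1, 3, 7 and 11. The mean was 69.5 ± 2.16 TPM (SD, n = 7), a coefficient of variation of 3.11%, lower than that of all but 0.888% of the 10698 models with a mean of at least 10 TPM in these libraries. The S copy stood at 17.0 TPM in naive TRAP, 17.5 and 19.4 in the sham eyes, and 19.4, 18.1, 20.97 and 17.5 in the contralateral eyes, with a mean of 18.6 ± 1.41 TPM (SD, n = 7). Its coefficient of variation was 7.60%, against a median of 11.1% over these models. Among the uncrushed libraries no operation or day stood apart for either copy. In naive TRAP, sox11.L lay above 94.5% and sox11.S above 82.6% of all gene models in TPM.

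Both copies were more abundant in ganglion cell TRAP RNA than in the retina as a whole. Total retina held 20.5 TPM of sox11.L and 5.41 TPM of sox11.S, the lowest level of the 12 libraries for each. On the scale of TMM-scaled CPM (counts relative to the library total, after a trimmed-mean correction), the log2 ratio of naive TRAP to total retina was 1.97 for sox11.L, a 3.92-fold difference (95% counting interval 3.63 to 4.25). It was 1.83 for sox11.S, or 3.57-fold (3.18 to 4.03). In this pair of libraries 19.3% of 19677 genes with at least 200 counts lay past 2-fold higher in TRAP and 19.6% past 2-fold lower. Over the 7 uncrushed TRAP libraries the log2 ratio ranged from 1.87 to 2.05 for sox11.L and from 1.83 to 2.17 for sox11.S, all against the same single total retina library, whose own error these ranges do not cover. Counting intervals here and below cover counting error only and no difference between frogs.

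**Figure D1:**
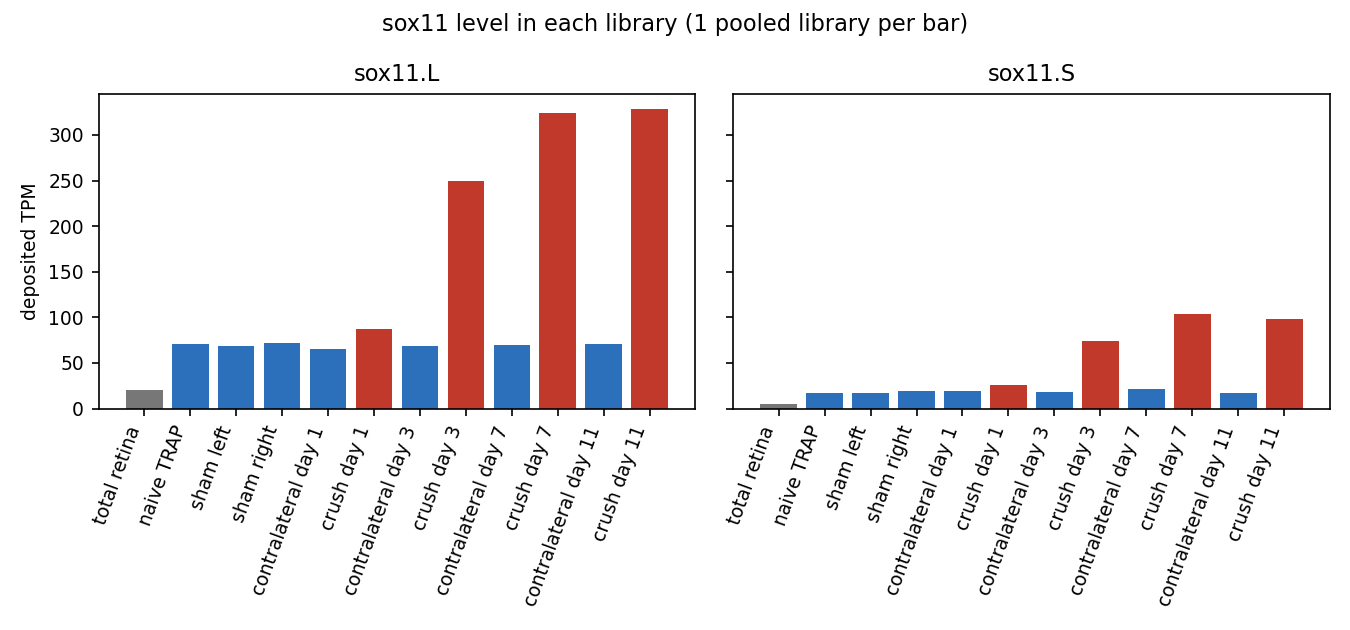
Deposited TPM of sox11.L (left) and sox11.S (right) in each of the 12 libraries, 1 pooled library per bar, with total retina in grey, uncrushed TRAP libraries in blue and crushed eyes in red. The uncrushed TRAP bars lie between 65.8 and 72.0 TPM for sox11.L and between 17.0 and 20.97 TPM for sox11.S, and every crush bar is above them.

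After optic nerve crush both copies climbed from day 1 to day 7, and changed little after that. In the crushed eye sox11.L stood at 87.4, 249, 324 and 329 TPM at days 1, 3, 7 and 11. The S copy stood at 26.4, 73.8, 103 and 98.7 TPM on the same days. All 4 crush libraries lay above all 7 uncrushed TRAP libraries for both copies, and the day 1 library was the nearest to them. At day 1 sox11.L was 21.3% and sox11.S 25.7% above the highest uncrushed library in TPM. In TMM-scaled CPM the margin was smaller. There sox11.L was at 123 CPM against at most 108 uncrushed, and sox11.S at 64.0 CPM against at most 53.2. Between days 1 and 3 the level in the crushed eye grew 2.85-fold for sox11.L and 2.80-fold for sox11.S in TPM, and between days 3 and 7 by 30.1% and 40.2%. The step from day 7 to day 11 was 1.43% for sox11.L and -4.60% for sox11.S, smaller for each copy than its coefficient of variation among uncrushed libraries. In TPM days 7 and 11 therefore did not differ beyond that spread, whereas the other neighbours in the order of crushed days did. In TMM-scaled CPM the step was 9.59% for sox11.L, above its coefficient of variation of 3.96%, and 3.09% for sox11.S, below its 8.68%. The order of the last days thus depended on the unit for sox11.S. For sox11.L day 11 was higher in both units, and the unit decided whether the step passed that spread. By day 11 sox11.L lay above 98.9% of all models in TPM.

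Against the contralateral eye of the same frogs, sox11.L was 1.30-fold higher at day 1 (95% counting interval 1.25 to 1.34), 3.78-fold at day 3 (3.63 to 3.93), 6.32-fold at day 7 (6.02 to 6.63) and 7.10-fold at day 11 (6.88 to 7.33). The S copy was 1.33-fold higher at day 1 (1.26 to 1.40), 4.22-fold at day 3 (3.98 to 4.47), 6.70-fold at day 7 (6.27 to 7.17) and 8.64-fold at day 11 (8.24 to 9.06). Between the eyes of sham-operated frogs the right-to-left ratio was 1.05-fold for sox11.L (0.994 to 1.10) and 1.10-fold for sox11.S (1.02 to 1.19). The ratios from day 3 on were past 2-fold for both copies. Among all genes with 200 or more counts in a pair, the share past 2-fold higher in the crushed eye was 1.32% at day 1, 8.18% at day 3, 20.7% at day 7 and 19.6% at day 11. The share past 2-fold lower was 0.76%, 5.49%, 14.9% and 19.3%. Between the sham eyes 0.458% were that much higher and 0.901% lower. Genes with a higher ratio than sox11.L made up 12.0% at day 1, 2.31% at day 3, 3.31% at day 7 and 2.42% at day 11. These pairs are 1 library against 1 and have no replicate check.

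**Figure D2:**
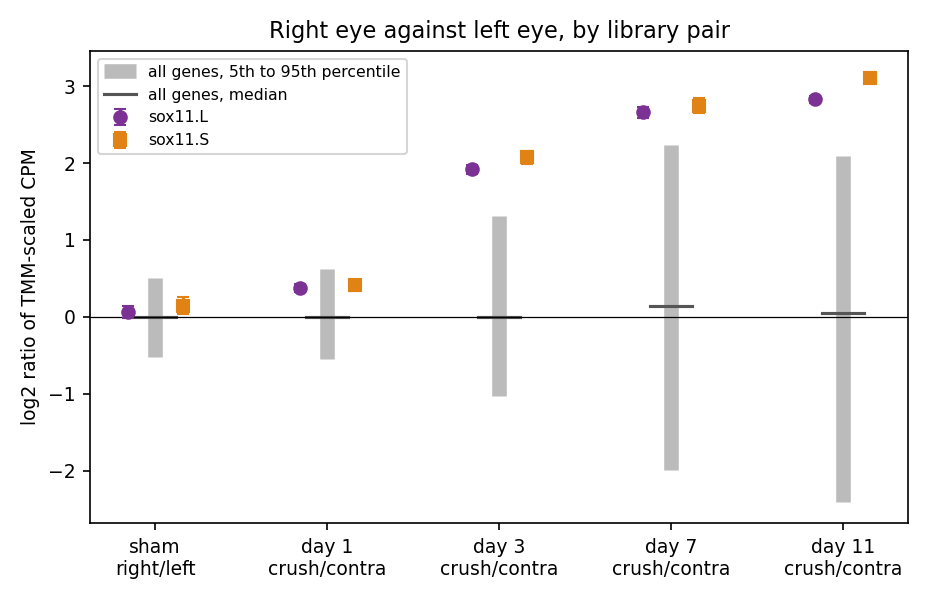
Log2 ratio of TMM-scaled CPM, right against left eye, for sox11.L (circles) and sox11.S (squares), with error bars for the 95% counting interval and grey bars for the 5th to 95th percentile of all genes with at least 200 counts over the pair. At days 3, 7 and 11 both copies lie above the grey bar, whereas at day 1, at 0.37 and 0.41, and in the sham pair they lie within it.

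The size of the late ratios depended on the scaling. Scaling by total counts instead of TMM shifted the median log2 ratio of all genes by -0.29 at day 7 and -0.38 at day 11. Relative to the median of all genes, which removes that shift by construction, the log2 ratio was 2.51 at day 7 and 2.78 at day 11 for sox11.L, and 2.60 and 3.06 for sox11.S. In the deposited TPM the day 11 log2 ratio was 2.21 for sox11.L and 2.49 for sox11.S, so the fold was smaller there but still above 2-fold.

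Set against all 7 uncrushed TRAP libraries, the 4 crush libraries were higher in both copies in edgeR. The difference was 2.17 ± 0.32 (SE) on the log2 scale for sox11.L (adjusted p = 0.00303) and 2.36 ± 0.33 for sox11.S (adjusted p = 0.00281), from quasi-likelihood tests over 26977 genes with Benjamini-Hochberg adjustment. In this comparison 11.8% of the genes tested were higher and 2.87% lower. In 2.53% of them all 4 crush libraries lay above all 7 uncrushed ones, as they did for both copies, and in 2.44% all 4 lay below. An exact two-sided permutation test over the libraries gave p = 0.00303 for each copy, the smallest that 330 splits allow. That p-value reflects the same separation of the libraries and is not further support. Both calls held with any 1 crush or contralateral library left out (adjusted p at most 0.0116), but with the 4 contralateral libraries as the comparison group they missed the threshold of 0.05 (adjusted p = 0.116 for each). Libraries of different days are pooled in this test, and the contralateral eyes belong to the same frogs as the crushed ones.

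The average effect over the 4 days, paired by day, did not pass, whereas the change of the effect with day did. Averaged over days 1 to 11 with day as a block, the edgeR log2 fold change was 1.96 ± 0.45 for sox11.L and 2.10 ± 0.47 for sox11.S (adjusted p = 0.223 for each, n = 4 pairs), with the crushed eye higher in 4 of 4 pairs. In this test 0.0385% of 26004 genes were called. Without the day 1 pair the same test called both copies, at 2.45 for sox11.L (adjusted p = 0.0107) and 2.62 for sox11.S (adjusted p = 0.00849). That fit called 2678 genes in all, 1611 higher and 1067 lower. A straight line fitted to the log2 ratio of crushed to contralateral eye against log2 of the day rose for both copies. Its slope per doubling of the day was 0.71 ± 0.11 for sox11.L (adjusted p = 0.00638) and 0.77 ± 0.12 for sox11.S (adjusted p = 0.00519). The single-day ratios were 0.37, 1.92, 2.66 and 2.83 for sox11.L and 0.41, 2.07, 2.74 and 3.11 for sox11.S. The rise was therefore not even, and was steepest between days 1 and 3. Rising slopes were called for 5.83% of genes (1515) and falling slopes for 6.85% (1781), and under total-count scaling for 881 and 2596 genes. Without day 1 neither slope passed, at 0.49 (adjusted p = 0.0876) for sox11.L and 0.54 (adjusted p = 0.0560) for sox11.S, and both passed with any other day left out.

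The L copy was the more abundant of the pair in every library, and the balance moved little while the sum rose. In TPM, sox11.L made up 80.7% of sox11 in naive TRAP, 79.7% and 78.8% in the sham eyes, and 77.3%, 79.0%, 76.9% and 80.2% in the contralateral eyes of days 1, 3, 7 and 11. In total retina its share was 79.2%. In the crushed eye the share was 76.8%, 77.2%, 75.8% and 76.9% at days 1, 3, 7 and 11. TPM divides by gene length, and the model lengths were 2746 for sox11.L and 4678 for sox11.S. In expected counts, which are not scaled for length, the share was lower, at 70.7% in naive TRAP and 65.9% at day 11 of crush. Shares below are again in TPM. The crush libraries were low in this range and overlapped the contralateral eye of day 7. The mean share was 76.7% ± 0.595 (SD, n = 4) after crush and 78.9% ± 1.43 (SD, n = 7) in uncrushed TRAP, a difference of -2.24 percentage points (two-sided exact permutation test, p = 0.0182), and it was lower in the crushed eye in 4 of 4 pairs. Without the crush library of day 1 or day 7 the difference missed the threshold (exact p = 0.0500 and 0.0583). Reads that the copies share are divided between them by the counting program, so the split carries that program's error as well.

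The difference in response between the copies was below the median of L and S pairs on every day. The crush log2 ratio of sox11.L minus that of sox11.S was -0.03, -0.16, -0.08 and -0.28 at days 1, 3, 7 and 11. Over the 4350, 3883, 4037 and 4202 pairs with at least 200 counts in each copy, the median absolute difference was 0.21, 0.35, 0.52 and 0.55. Smaller differences than that of sox11 were found in 9.95%, 23.6%, 9.61% and 27.6% of pairs. The pairs were not matched to sox11 for count, and counting error is larger in pairs with few counts. In uncrushed TRAP 11.0% of 5006 pairs had a larger share of TPM from the L copy than sox11, and the median share was 53.6%.

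**Figure D3:**
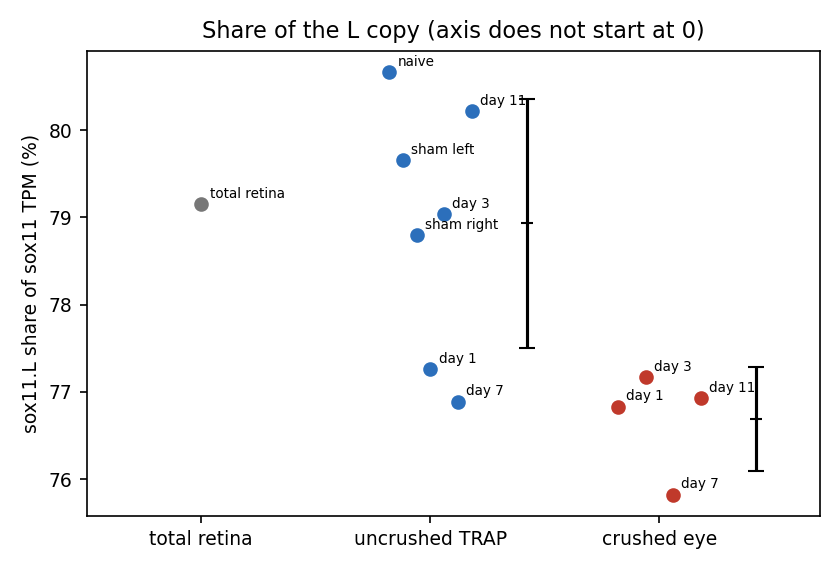
Share of sox11.L in the summed TPM of both copies, in percent, for each library of total retina, uncrushed TRAP and crushed eyes, with the mean and SD beside the points and an axis that does not start at 0. The crush libraries lie between 75.8% and 77.2%, and 1 uncrushed library, the contralateral eye of day 7 at 76.9%, lies within that range.

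The profiles of the sox11 copies over the 11 TRAP libraries were close to each other and to those of a few other genes. The copies had a Pearson correlation of 0.996 with each other in log2 CPM, which made sox11.S the closest gene to sox11.L. Among 12850 genes with a symbol and at least 500 counts, the next for sox11.L were eif2s3.L (the gamma subunit of initiation factor eIF2, r = 0.995), kars.L (lysyl-tRNA synthetase, 0.995), cdknx.S (a Xenopus inhibitor of cyclin-dependent kinases, 0.994) and vars.L (valyl-tRNA synthetase, 0.993). For sox11.S the closest was gnl2.L (a nucleolar GTPase of ribosome assembly, r = 0.997), followed by sox11.L, eif2s3.L (0.994), vars.L (0.993) and cdknx.S (0.991). All of these share the same 11 libraries and the same crush response, so the coefficients describe the shape of the profile and nothing more. The size of the response differed among them. The level of kars.L was between 45.9 and 58.2 CPM in uncrushed TRAP. At day 1 of crush it was within that range, at 56.3 CPM. It was 260, 429 and 465 CPM at days 3, 7 and 11. The level of eif2s3.L went from between 116 and 132 CPM to 142, 267, 369 and 374 CPM at days 1, 3, 7 and 11.

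**Figure D4:**
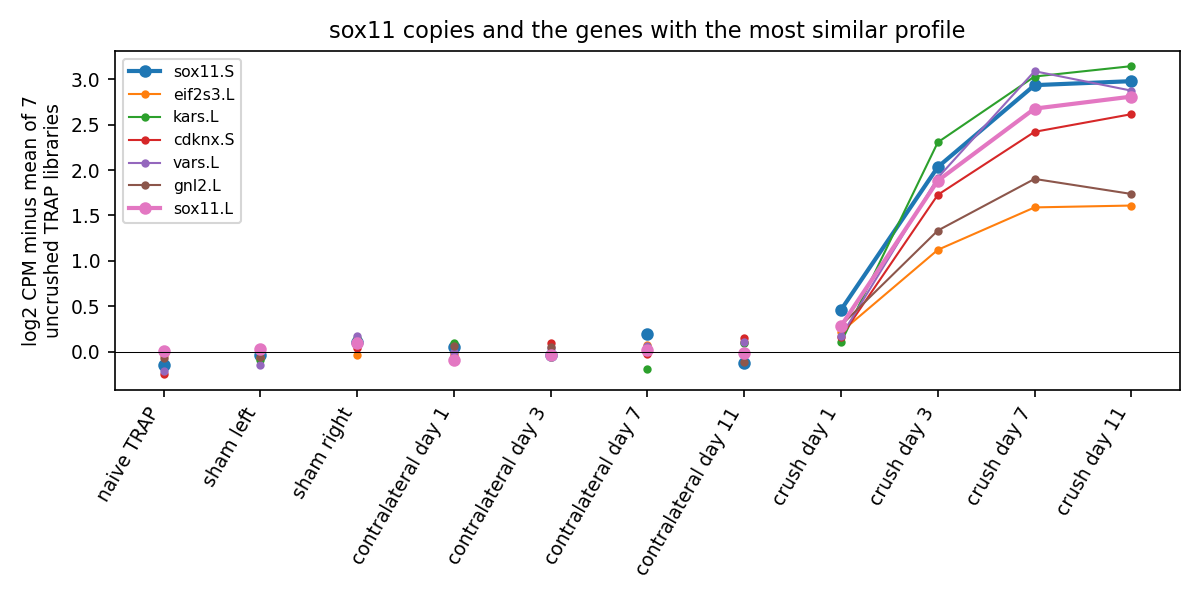
Log2 CPM of sox11.L, sox11.S and the 5 genes with the most similar profile, minus the mean of the 7 uncrushed TRAP libraries, in each TRAP library, with the crush libraries joined in order of day. Every gene shown is near 0 in the uncrushed libraries and is higher at day 7 of crush than at day 1, standing at 2.94 for sox11.S and 1.59 for eif2s3.L at day 7.

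Most of the other SOX gene models were at low levels, and few were called. Gene models with a symbol were found for 11 of 20 SOX genes listed, sox11 included, and neither sox4 nor sox12, the other SoxC genes, was among them. Of the 18 other models, 13 were abundant enough to be tested against uncrushed TRAP. Of these 2 were higher, 0 were lower and 11 did not pass (2.87% of all genes were called lower and 11.8% higher). Their median log2 change was -0.36, against -0.02 over all genes tested (-0.46 and -0.15 under total-count scaling). Apart from sox2.1, sox9.1 and sox13.S, all models tested were at no more than 1.94 TPM in every uncrushed TRAP library. With so few models at such levels, these counts say little about the family. The gene sox9.S, a Mueller glia factor in the retina, showed a log2 change of 2.04 ± 0.43 (adjusted p = 0.00971), from between 0.76 and 1.89 TPM in uncrushed TRAP to 1.07, 5.26, 3.53 and 6.21 TPM at days 1, 3, 7 and 11. The other gene was sox8.L, a close relative of sox9, higher by 1.22 ± 0.32 (adjusted p = 0.0224) at no more than 2.22 TPM in TRAP. Unlike the sox11 copies, both genes were depleted from ganglion cell TRAP RNA. The log2 ratio of naive TRAP to total retina was -3.19 for sox9.S and -4.06 for sox8.L. Total retina held 8.13 TPM of sox9.S and 14.67 TPM of sox8.L, above every crush library. Which cells carried the rise of sox9.S and sox8.L was not tested. The more abundant sox9.1 was at 9.62 to 14.9 TPM in uncrushed and 11.5, 16.1, 14.7 and 18.2 TPM in crushed eyes (adjusted p = 0.0504). For the average over days, 0 of 12 tested models were called in edgeR (2 at an unadjusted p under 0.05, 0.0385% of all genes called) and 2 in DESeq2, which called 13% of all genes. For the slope 0 of 12 were called in either tool (1 at an unadjusted p under 0.05), against 12.7% of all genes in edgeR and 18.6% in DESeq2.

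**Figure D5:**
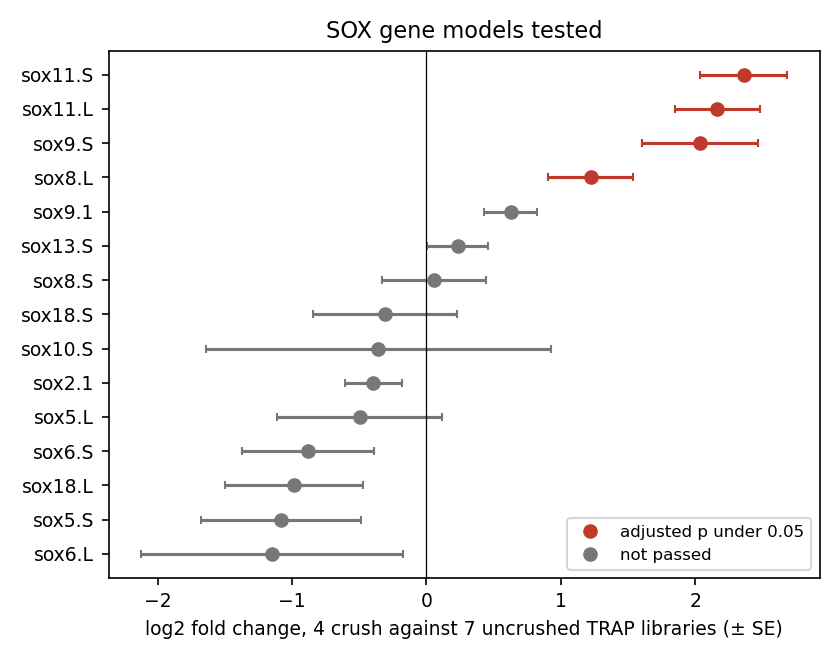
Log2 fold change with SE of the SOX gene models tested, 4 crush against 7 uncrushed TRAP libraries, with those of adjusted p under 0.05 in red. The sox11 copies, at 2.36 and 2.17, and sox9.S, at 2.04, lie highest, and the remaining models except sox8.L did not pass. Unlike the sox11 copies, sox9.S and sox8.L had a negative log2 ratio of naive TRAP to total retina.

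Genes that are known in mouse or chick as targets of SoxC factors, or that accompany them in growing neurons, went in both directions. Models were found for 10 of 17 such genes, 22 in all, and 18 were tested. In DESeq2 1 of 18 was lower against uncrushed TRAP (9.32% of all genes). In edgeR 4 of 18 were higher and 0 lower (11.8% and 2.87% of all genes), with 6 at an unadjusted p under 0.05. The median log2 change was 0.01 (-0.14 under total-count scaling). The higher ones were tubb3.S, neuronal beta-tubulin, the Krueppel-like factor copies klf6.L and klf6.S, and mycn.L, an oncogenic transcription factor. The level of tubb3.S went from between 536 and 703 TPM in uncrushed TRAP to 556, 758, 1372 and 2358 TPM after crush (log2 change 1.42 ± 0.37, adjusted p = 0.0236). At day 1 the level of tubb3.S was within its uncrushed range, and a difference in timing from sox11 was not tested. For klf6.L the log2 change was 1.32 ± 0.22 (adjusted p = 0.00391), with its highest crush level, 24.6 TPM, at day 7. The level of mycn.L was highest at day 3, at 105 TPM. In TPM it was back within its uncrushed range of 14.0 to 19.4 at day 11, at 16.8. Its TMM-scaled log2 ratio to the contralateral eye was still 0.71 at day 11. With the day of crush, 1 of 18 models rose, tubb3.S, and 4 fell (5.83% and 6.85% of all genes). Under total-count scaling 1 rose and 5 fell (3.39% and 9.98% of all genes), and in DESeq2 3 rose and 6 fell (8.86% and 9.74%). The 4 that fell in the first of these were mycn.S, the neurotrophin gene bdnf.L, and both copies of nrcam, a cell adhesion molecule that SoxC factors act through in mouse ganglion cell axons. The slope of nrcam.S was -0.50 ± 0.12 (adjusted p = 0.0263), and its level in the crushed eye went from 22.6 TPM at day 1 to 4.44 TPM at day 11. The most abundant member, stmn1.S (stathmin, a tubulin-binding protein), was at 2709 to 3056 TPM in uncrushed and 1695 to 2574 TPM in crushed eyes (adjusted p = 0.495). Its TMM-scaled log2 ratio to the contralateral eye was -0.15, -0.42, -0.31 and 0.37 at days 1, 3, 7 and 11, so the day 11 direction depends on the unit.

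Transcription factors that specify ganglion cells, and POU and bHLH factors that act with SOX proteins, fell with day in 16 of the models tested. Of 37 models tested, 0 rose and 16 fell with day (6.85% of all genes fell), with a median slope of -0.55 against -0.03 over all genes. Among them pou4f3.L, a POU factor of ganglion cells, stood at 156, 33.0, 2.57 and 1.71 TPM at days 1, 3, 7 and 11 of crush, against 133 to 182 TPM in uncrushed TRAP (slope -1.86 ± 0.18, adjusted p = 0.00279). The level of pou4f2.L went from 92.6 to 4.51 TPM between days 1 and 11, and that of barhl2.L, a homeobox factor, from 325 to 17.9 TPM. The most abundant, pou4f1.2.L, stood at 346, 204, 56.5 and 85.8 TPM (slope -0.51 ± 0.14, adjusted p = 0.0443). The slopes of both pou4f2 copies, both pou4f3 copies, both barhl2 copies, irx1.L and irx2.L were negative, with adjusted p from 0.00279 to 0.0113. Against uncrushed TRAP 2 models were higher, both copies of the zinc finger gene myt1, and 5 lower (11.8% and 2.87% of all genes). In DESeq2 16 were lower, against 9.32% of all genes. In TRAP RNA of whole retinas, fewer ganglion cells of a type and less RNA per cell cannot be told apart.

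Among transcription factors known from nerve injury, more were higher. Of 44 models tested, 29 were higher and 0 lower against uncrushed TRAP (11.8% and 2.87% of all genes), with a median log2 change of 1.31. The klf6 and mycn copies are also in the list above of SoxC targets and genes that accompany SoxC factors, so the counts of the lists overlap. Several injury factors had larger changes than sox11. The AP-1 subunit jun.L was higher by 4.53 ± 0.45 (adjusted p = 0.00238), at 53.0, 490, 372 and 293 TPM over the days of crush against 12.2 to 23.6 TPM uncrushed. The stress-induced factor atf3.L was higher by 5.91 ± 0.65 (adjusted p = 0.00281), at 8.25, 318, 221 and 153 TPM. In TPM both were highest at day 3, as were jun.S, junb.L, cebpd.L, atf3.S and jund.S, whereas sox11.L was highest at day 11, sox11.S at day 7 and junb.1 at day 7. The order depends on the unit. In the TMM-scaled log2 ratio to the contralateral eye, jun.S was at 3.84, 3.85 and 3.89 at days 3, 7 and 11, and atf3.L was highest at day 7, at 6.44. The difference in timing was not tested between genes. With day, 4 of these 44 models rose and 3 fell, against 5.83% and 6.85% of all genes. Under total-count scaling 1 rose and 5 fell (3.39% and 9.98% of all genes), and in DESeq2 9 rose and 6 fell (8.86% and 9.74%). The slope of jun.S was 0.71 ± 0.18 (adjusted p = 0.0299), that of jun.L 0.85 ± 0.30 (adjusted p = 0.133). The most abundant member, atf4.L, a factor of the integrated stress response, was higher by 0.75 ± 0.19 (adjusted p = 0.0190).

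Markers of other cells were measured in the same libraries. The models rbpms.L (ganglion cell), gad1.2.S (amacrine cell) and olig2.L (oligodendrocyte) were at 0 in all crush libraries. They were at or near 0 without crush too. Over all libraries gad1.2.S had 0 counts, olig2.L 2, found in total retina only, and rbpms.L 7. The summed level of 21 ganglion cell marker models was 11445 to 12418 CPM in uncrushed TRAP and 11108, 7752, 6739 and 10993 CPM at days 1, 3, 7 and 11 of crush. Without tubb3.L and tubb3.S it was 9743 to 10381 CPM in uncrushed and 9522, 5760, 2567 and 3580 CPM in crushed eyes. With day 12 of 20 tested ganglion cell models fell (6.85% of all genes) and 1, tubb3.S, rose (5.83%). The pou4f and tubb3 models among them are also in the lists above. The level of rbpms2.L was 3438, 1469, 86.5 and 127 TPM over the days of crush. The models did not all fall, and 3 of the 20 tested had a positive slope. The level of nefm.L, for 1, was 435, 415, 358 and 533 TPM over the days of crush, against 378 to 491 TPM uncrushed (edgeR slope, adjusted p = 0.412). Photoreceptor markers (17 models) summed to 1478 to 1898 CPM in uncrushed and 1757, 1710, 1207 and 1275 CPM in crushed eyes, against 25934 CPM in total retina. Bipolar cell markers (10 models) summed to 60.1 CPM at day 7 and 76.0 CPM at day 11, below their uncrushed range of 197 to 246 CPM. Without the gpr179 copies, whose log2 ratio of naive TRAP to total retina was -0.24 and 0.03, the sum was 32.4 and 28.6 CPM on those days, against 39.4 to 59.7 CPM. Of 15 Mueller glia and astrocyte marker models, vim.2.L and vim.2.S were at 0 in all crush libraries. These 2 held 13 and 0 counts over all libraries. The 15 models summed to 140 to 208 CPM in uncrushed and 178, 186, 352 and 653 CPM in crushed eyes. Against uncrushed TRAP 2 of their 11 tested models were higher, vim.L (vimentin) and sox9.S (11.8% of all genes were higher). Without vim.L the sum was 162, 159, 155 and 249 CPM after crush, against 133 to 197 CPM. Leukocyte and microglia markers (8 models) summed to 4.73 to 9.83 CPM in uncrushed and 6.72, 14.7, 45.3 and 70.1 CPM in crushed eyes. Both cxcr4 copies were higher among 4 tested, against 11.8% of all genes. Without the cxcr4 copies that sum was at most 1.46 CPM in crushed eyes and at most 2.03 CPM in uncrushed TRAP. Markers of retinal progenitors and cycling cells (12 models) summed to 7.10 to 10.7 CPM in uncrushed and 4.37 to 6.48 CPM in crushed eyes. The amacrine and horizontal cell sum (13 models) was 109 to 160 CPM after crush against 133 to 161 CPM, and that of endothelial and blood cells (8 models) 13.0 to 22.0 CPM against 11.2 to 23.9 CPM. The oligodendrocyte and Schwann cell sum (8 models) went from between 578 and 734 CPM to 635, 368, 117 and 76.7 CPM. Nearly all of it was mpz.L, which was higher in naive TRAP than total retina (log2 ratio 2.06), and without it the sum was 9.05 to 11.4 CPM after crush against 8.78 to 18.7 CPM. The part that vim.L and the cxcr4 copies, or the cells that carry them, have in the rise of sox11 was not tested.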

How the data were processed

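The submitters' processing notes name RSEM 1.2.21, Bowtie2 2.2.5 and Trimmomatic 0.33. No source used here gives a genome build. For each of 45099 gene models the authors deposited an expected count, a TPM and an FPKM, per the file headers. No value here uses FPKM. Rounding the expected counts to integers shifted library totals by at most 0.000797%. Tests were edgeR 4.0.16 quasi-likelihood fits in R 4.3.3 (robust, TMM scaling, filterByExpr), fitted on all genes with Benjamini-Hochberg adjustment and a threshold of 0.05. The fits were also run on simulated counts that held no differences between days or frogs, so that run does not measure their error in these data. The 4 crush and 4 contralateral libraries were paired by day because both eyes of a day came from the same frogs, per the labels. Deviations of the 2 libraries of a day from their group means correlated across genes at 0.112, 0.0771, 0.0600 and 0.0568 at days 1, 3, 7 and 11. The slope asks whether the log2 ratio of crushed to contralateral eye changes with log2 of the day, on 2 residual degrees of freedom. P-values measure the spread between pooled libraries and days. Log2 ratios of single pairs use TMM-scaled CPM with a prior count of 2, and intervals of folds are 95% exact binomial. The alternatives were other scalings, no filter, DESeq2 1.42.0, summed copies, no day block and leaving out libraries, and, added after seeing the data, other scaling and DESeq2 for the list counts, marker sums without their dominant models, each day against naive TRAP and the exact permutation of means.

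The members, lists and tests were chosen with earlier results of these data known. From each list the text names up to 8 models that passed any of the 3 tests, by smallest p, and the most abundant one, and for each sox11 copy the 5 genes with the highest correlation. A few others were named to complete a count after their values were seen. List symbols without a matching model could not be looked up by name. Both sox11 symbols are present in RefSeq's table for Xenopus_laevis_v10.1, from which only names were taken.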

Additional observations from a re-analysis of the deposited data

Results flagged for a closer look

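The crush effect on sox11 differed between days by a test of the difference itself. The log2 ratio of crushed to contralateral eye had a positive fitted slope with log2 of the day. It was 0.71 per doubling for sox11.L (edgeR, adjusted p = 0.00638) and 0.77 for sox11.S (adjusted p = 0.00519). The ratio went from 0.37 and 0.41 at day 1 to 1.92 and 2.07 at day 3, and to 2.83 and 3.11 at day 11. The rise was thus steepest between days 1 and 3. Neither slope passed without day 1. The day 1 crush library lay below the other 3 crush libraries, at 87.4 TPM of sox11.L against 249 to 329 and at 26.4 TPM of sox11.S against 73.8 to 103.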

How the results depend on the processing

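The direction of the sox11 crush effect, slope, TRAP enrichment and homeolog difference was kept under each alternative tried. The step of sox11.S from day 7 to day 11 of crush turned, at 0.04 on the log2 scale with TMM, -0.02 with total counts and -0.07 in TPM. The 4-day average of sox11.L and sox11.S passed in DESeq2 (1.96 and 2.10, adjusted p = 0.000383 and 0.000226). With single days left out it ranged from 1.65 to 2.45 for sox11.L and from 1.75 to 2.62 for sox11.S, and passed without day 1. Without the day block it was 2.21 and 2.35 (adjusted p = 0.116 for each), the same values as against the 4 contralateral libraries alone. The slope ranged from 0.49 to 0.81 for sox11.L and from 0.54 to 0.83 for sox11.S with single days left out. The homeolog difference ranged from -2.59 to -1.96 percentage points with single libraries left out.

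Counts of called genes moved more. For the 4-day average 10 genes became 6 with total counts, 25 without the filter, 3127 in DESeq2, 0 in edgeR without the day block (5450 at an unadjusted p under 0.05) and 0 to 2678 with single days left out, the 0 being without day 7 (1357 at an unadjusted p under 0.05). The slope count of 3296 ranged from 1233 to 5163 with single days left out. Against uncrushed TRAP 3956 became 6378 in DESeq2, 0 in edgeR with the contralateral libraries alone (the same fit), and 1365 to 10174 with single crush libraries left out, or 2552 to 2688 with single contralateral libraries left out.

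From day 3 on, single-day log2 ratios were smaller under other scalings, and at day 1 slightly larger (0.41 for sox11.L and 0.45 for sox11.S in TPM). With total counts sox11.L was 2.37 at day 7 and 2.45 at day 11, and sox11.S 2.46 and 2.73. In deposited TPM sox11.L was 2.22 and 2.21, and sox11.S 2.30 and 2.49. Against naive TRAP, an alternative added after seeing the data, sox11.L was 0.27 at day 1, and sox11.S 0.60, 2.18 and 3.08 at days 1, 3 and 7. The median TRAP enrichment of sox11.L was 1.86 with total counts and 1.76 in TPM, and that of sox11.S 1.81 and 1.74. The causes were not tested. With 1 pooled library per condition, differences between frogs could not be measured.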
